A study of Patiria miniata with 46 samples.

Results

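Across the width of an arm of the juvenile bat star Patiria miniata, 150 loci stood highest in the sections near both edges, were low in the middle sections, and did not increase from one end of the oral-aboral series to the other. They are 150 of the 23869 loci in the count table, and none carries a gene name. They were chosen from measured values: a locus needed at least 100 counts over the 16 left-right sections, which 13185 loci had, and a mean level in oral-aboral sections 7 and 8 no higher than in sections 1 and 2, which 10448 of those met. The 150 with the highest edge ratio were taken. Levels are counts per 1000000 counts (CPM) of the library total without locus V4_HAP1_PB.21421, which took up to 50.3% of 1 library. The edge ratio is the mean CPM of left-right sections 1 to 3 and 14 to 16, plus 1, over the mean CPM of sections 6 to 11, plus 1. Both contrasts in that rule are therefore descriptions here, with no test.

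An arm of specimen 2 was cut from side to side into the 16 left-right sections. Specimen 1 gave the 8 oral-aboral sections, between the mouth-bearing face and the upper face, and the 22 proximo-distal sections, between the disc end and the tip. All 46 libraries were made from polyadenylated RNA of frozen sections of whole arms of young animals, with no treatment, and section 1 is not tied to either end of an axis by the labels nor do they say whether the series of specimen 1 share an arm. No position has a second library, so a p-value measures only how sections scatter around a pattern within 1 arm, not the spread between animals.

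A sea star arm holds the radial nerve cord and the ambulacral groove along its oral midline, with rows of tube feet on either side. The body wall closes the arm at its lateral margins and over its aboral face, and digestive caeca and gonads lie in the body cavity. A section cut parallel to the long axis near an edge therefore holds more lateral body wall, and a middle section holds more of the midline organs. In bulk sections, fewer cells of a type and less RNA per cell cannot be told apart.

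Genes named by symbol gave the layout of the left-right series. Otx and Dmbx, homeobox genes used in anterior and neural patterning, and Tailless, an orphan nuclear receptor of the brain, had 0 counts in all 6 edge sections, against means of 49.5, 40.0 and 5.87 CPM in the 6 centre sections. All 3 also had 0 counts in sections 4 to 6, and section 6 is one of the centre sections. In sections 12 and 13, outside the centre set, Otx had 21.8 and 14.1 CPM and Dmbx had 25.8 and 20.3 CPM. The stretch with these genes, sections 7 to 13, was thus shifted against centre sections 6 to 11. Pax6, a paired-box gene of eyes and nervous system, averaged 2.79 CPM in edge sections and 47.4 CPM in centre sections. It had 1.56 CPM in section 6, and 47.6 and 30.8 CPM in sections 12 and 13. FoxA, a forkhead gene used in endoderm, ranged from 0 to 16.5 CPM in edge sections and from 43.6 to 127.6 CPM in centre sections. Of the Hox11-13 genes, the posterior class of the Hox cluster, Hox11-13d averaged 85.7 CPM at the edges and 24.1 CPM in the centre, Hox11-13b averaged 12.8 CPM at the edges and 11.8 CPM in the centre, and Hox11-13a had 3 counts in the whole series. Total counts ran from 250704 to 1319963 in edge libraries, from 645959 to 1591759 in centre libraries, from 2573762 to 6921408 in the oral-aboral series and from 196002 to 680685 in the proximo-distal series.

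The edge ratio of the 150 loci ran from 1.99 to 5.38, with a median of 2.37, and 25 of them reached 3. The median level was 32.8 CPM at the edges, 23.5 CPM in the flanking sections (4, 5, 12 and 13) and 11.5 CPM in the centre. Their left-right counts ran from 106 to 251015, with a median of 363, so 36 loci rested on fewer than 200 counts and 39 on 1000 or more. At the threshold, PB.18612, PB.8819 and PB.26369 were just inside with ratios of 1.996, 1.995 and 1.990, and PB.25271, PB.17521 and PB.23361 were just outside with 1.988, 1.986 and 1.986. Identifiers written PB. and a number stand for V4_HAP1_PB. loci, and 5 of the 150 carry the tag V4_HAP2 instead (1.96% of the 13185 loci). The counts of 9 loci were summed from 2 transcript models (13.4%).

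PB.25772 had the highest ratio, 5.38, on only 200 counts: its edge sections had 12.0 CPM at the lowest, 25.8 at the median and 28.1 at the highest, against 1.45, 2.81 and 6.16 CPM in centre sections. PB.17231 followed at 5.32 on 161 counts, with 5.51, 16.4 and 30.3 CPM at the edges, against 0, 2.82 and 4.39 CPM in the centre. In both loci every edge section was above every centre section. PB.21173, on 3909 counts, had 198.2, 423.6 and 700.2 CPM at the edges, against 28.5, 76.3 and 185.3 CPM in the centre. PB.1152, on 5808 counts, had 319.5, 559.9 and 702.5 CPM at the edges, against 22.5, 90.4 and 331.7 CPM in the centre. The groups did not overlap in PB.21173, and in PB.1152 they overlapped through centre section 6 alone, which at 331.7 CPM passed the lowest edge section. PB.19592, PB.15345, PB.17316, PB.8079, PB.23128 and PB.1514 complete the 10 highest, with ratios of 4.81, 4.25, 4.23, 4.21, 3.96 and 3.66. Of these 10 loci, 6 stayed among the 150 under every alternative form of the rule. In PB.23128 the edges themselves were unequal, from 57.2 to 379.5 CPM, and the lowest of them lay below centre sections that reached 102.1 CPM.

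**Figure D1:**
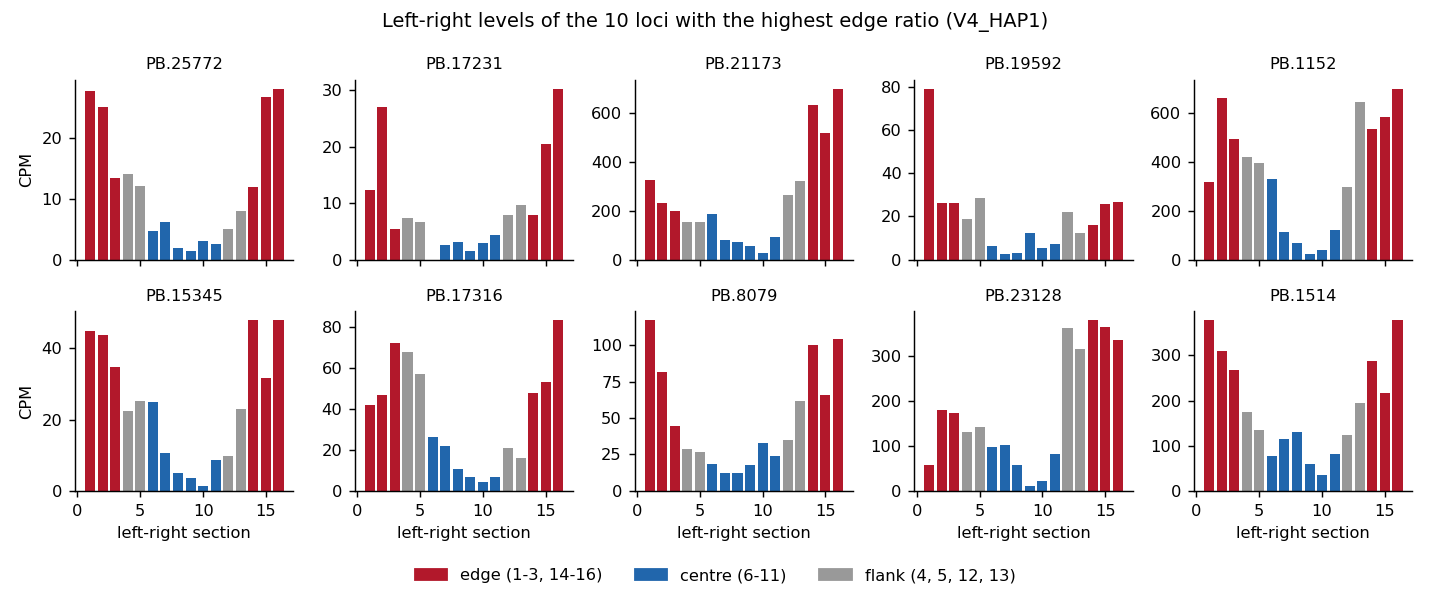
Level in CPM (vertical axis, from 0, scaled per panel) of the 10 loci with the highest edge ratio in left-right sections 1 to 16 (horizontal axis), 1 bar per library, with edge sections in red, centre sections in blue and flanking sections in grey. Bars are tall on both sides and low between sections 7 and 11; PB.19592 stands out by section 1 (79.2 CPM) and PB.23128 by low bars in sections 1 to 3.

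All 6 edge sections were above all 6 centre sections in 61 of the 150 loci, against 1.99% of the 13185 loci with enough counts; the rule used this contrast, so the count only describes how clean the pattern is. The highest of the 16 sections was in sections 1 to 3 for 81 loci, in sections 14 to 16 for 55, in a flanking section for 14 and in a centre section for 0. Section 1 alone was the peak of 55 loci. The highest edge section carried between 19.0% and 46.7% of a locus's summed edge CPM (median 24.3%), and the most uneven was PB.5717, with its peak in section 1.

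Both edges were close to equal at the median, though more loci peaked in sections 1 to 3. The mean of sections 14 to 16 over that of sections 1 to 3 had a median of 0.97 over the 150 loci and ran from 0.388 to 3.25. Over all loci with enough counts the median was 1.07. It reached 2-fold in favour of sections 14 to 16 in 8 loci (3.41% of all loci with enough counts) and in favour of sections 1 to 3 in 3 loci (1.9%). All of sections 14 to 16 were above all of sections 1 to 3 in 11 loci (8.99%), and the reverse held in 11 (3.41%). PB.19061 was the most one-sided, with means of 348.6 CPM in sections 14 to 16 and 106.4 CPM in sections 1 to 3. At the other end PB.5717 had 42.1 CPM in sections 14 to 16 and 110.2 CPM in sections 1 to 3. PB.5716, with the number before it in the annotation, had 5.06 CPM in sections 14 to 16 and 14.3 CPM in sections 1 to 3.

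The 4 flanking sections entered the rule only through the minimum of 100 counts, not through the edge ratio. Sections 4 and 13, nearer the edges, were set against sections 5 and 12, nearer the centre, with edgeR's quasi-likelihood test across 14907 loci. Of the 150 loci, 111 were higher in the outer flank (48.6% of all tested), with a median log2 difference of 0.25 against -0.01 over all loci. None of the 150 passed an adjusted p of 0.05 in either direction, and neither did any other locus (0%); limma and DESeq2 also gave 0. At an unadjusted p under 0.05 there were 1 of the 150 and 195 of all loci, in a comparison of 2 sections against 2.

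Of 249 other edge loci with an equal or higher ratio that were higher in oral-aboral sections 7 and 8, 128 had all edge sections above all centre sections, and 153 of the 247 tested were higher in the outer flank. Over the left-right series the mean relative profiles of the 2 sets lay close together. They part along the oral-aboral series, where the rule separates them.

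**Figure D2:**
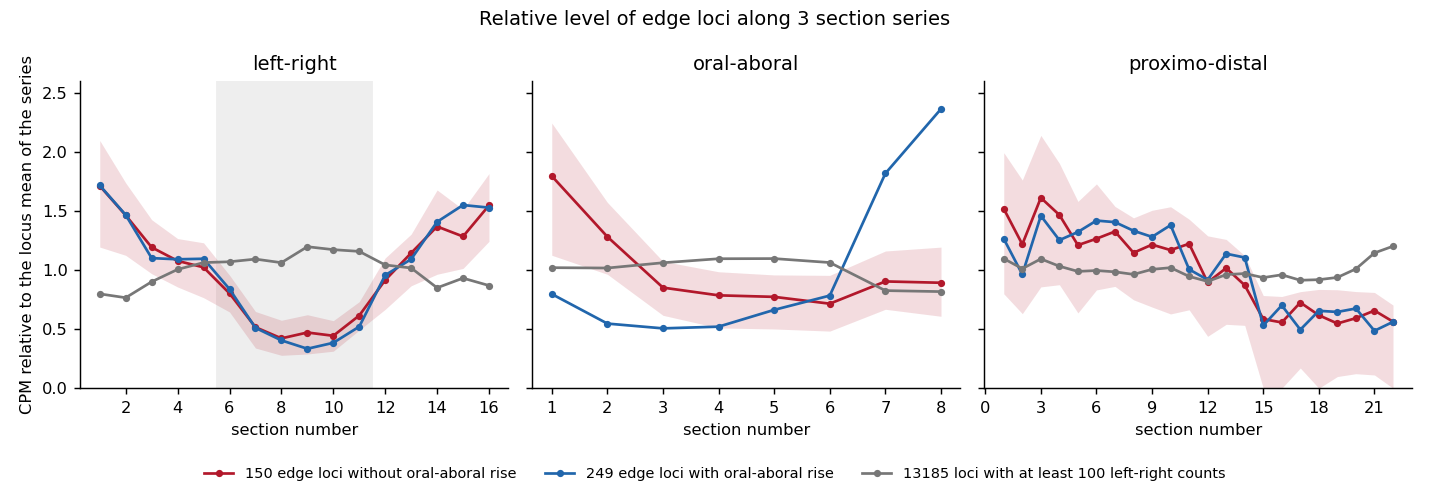
Mean level relative to each locus's own mean in that series (vertical axis, ratio) by section number for the 150 edge loci (red, band from the lower to the upper quartile of loci), the 249 edge loci with an oral-aboral rise (blue) and all 13185 loci with at least 100 left-right counts (grey), in 1 panel per series; centre sections are shaded. The 150 loci stood at 1.71 in left-right section 1 and 0.422 in section 8, at 1.80 in oral-aboral section 1 and 0.715 in section 6, and at 1.52 in proximo-distal section 1 and 0.563 in section 22.

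Along the oral-aboral series of specimen 1, the 150 loci were not flat. The highest section was section 1 in 85 of them (21.2% of all loci with enough counts) and section 2 in 32 (12.1%). The rule, which asks sections 1 and 2 to be no lower than 7 and 8, fixes part of that. The inner sections, 3 to 6, held the peak of 26 loci (53.6%). Summed over the 150 loci, the level was 16840, 11592, 6173, 4892, 5010, 5143, 8673 and 8394 CPM in sections 1 to 8, so the middle of this series was low as well. In 8 loci both end pairs averaged under 1 CPM, so that the condition was met close to 0.

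The inner sections (3 to 6) were set against the outer ones (1, 2, 7 and 8). The rule did not use the inner sections, but it compared the outer ones with each other, so these counts are not independent of the choice of loci. After the filter on low counts, 138 of the 150 loci could be tested. The inner sections were lower in 83 of them and higher in 6, against 19.5% lower and 22.4% higher over all 19175 loci tested (edgeR quasi-likelihood, adjusted p under 0.05). Among the 10326 tested loci that met the count and oral-aboral conditions, 17.9% were lower and 24.3% higher. The median log2 difference was -1.05 in the 138 loci and 0.02 in all loci, and 117 of the 138 were negative (48.9% of all loci). Without the filter all 150 were tested, with 85 lower (17.3%) and 5 higher (17%). With sections 7 and 8 alone as the outer sections, the pair that the rule holds no higher than sections 1 and 2, 66 of 140 tested loci were lower and 8 higher (22.6% and 21.9% of all 19917 loci tested). Among the 10369 tested loci that met the count and oral-aboral conditions, 15.7% were lower and 24.4% higher there. All 4 inner sections were below all 4 outer ones in 46 of the 150 loci (10.5% of loci with enough counts), and above them in 10 (28.4%). Leaving out section 4 or section 5, both inner, gave 54 and 55 lower loci. Scaling by total count alone gave 57 lower and 6 higher; over all loci it gave 4578 higher and 2396 lower, against 4294 and 3744 with TMM scaling, and moved the median of all loci to 0.20.

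PB.586 was lower in the inner sections, where sections 3 to 6 had 90.8, 75.3, 73.2 and 98.3 CPM, against 288.3, 288.1, 193.4 and 145.3 CPM in sections 1, 2, 7 and 8. The lowest outer section was above the highest inner one. Its log2 difference was -1.67 ± 0.17 (SE, edgeR adjusted p = 0.00283). PB.3995, on 17450 oral-aboral counts, had 238, 166, 173 and 229.8 CPM in inner sections, against 1003, 668, 544 and 408 CPM in outer ones. It was highest in section 1 and had a second high end at sections 7 and 8, and its log2 difference was -1.93 ± 0.23 (edgeR adjusted p = 0.00288). PB.21003, PB.7257 and PB.21890 complete the 5 lower loci with the smallest p, with log2 differences of -1.38 ± 0.13, -1.73 ± 0.17 and -1.50 ± 0.18, and in none of the 3 did the inner and outer sections overlap. The largest called difference was -4.23, in PB.4726.

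Among the 10 loci with the highest edge ratio, 8 could be tested in the oral-aboral series. PB.21173 had 45.8, 52.5, 56.6 and 56.1 CPM in inner sections 3 to 6, against 376, 128, 186 and 194 CPM in sections 1, 2, 7 and 8. Section 1 was the highest by far, and no inner section reached an outer one, with a log2 difference of -2.34 ± 0.31 (edgeR adjusted p = 0.00288). PB.1152 was lower by -2.90 ± 0.51, PB.17316 by -1.78 ± 0.44 and PB.1514 by -1.50 ± 0.34 (edgeR adjusted p = 0.00468, 0.0139 and 0.0105). PB.19592 was called at -1.77 ± 0.62 (edgeR adjusted p = 0.0479), a call lost without section 1, 3, 4, 5, 6 or 8. PB.17231, with the second highest edge ratio, differed by 0.23 ± 0.26, PB.8079 by -0.55 ± 0.26 and PB.23128 by -0.33 ± 0.38, none past the threshold (adjusted p = 0.485, 0.122 and 0.516). PB.8079 passed it without section 1 or section 3.

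The 6 loci that were higher in the inner sections were exceptions to this. PB.12593 had 62.0, 57.4, 58.0 and 45.6 CPM in sections 3 to 6, against 3.52, 23.0, 4.03 and 1.15 CPM in sections 1, 2, 7 and 8. Its log2 difference was 2.70 ± 0.67 (edgeR adjusted p = 0.0143). PB.17362 had 35.4, 38.7, 43.8 and 45.2 CPM in inner sections, against 12.0, 19.5, 11.6 and 12.3 CPM in outer ones, with a log2 difference of 1.30 ± 0.17 (edgeR adjusted p = 0.00288). In both, every inner section was above every outer one, and section 2 was the highest of the outer sections. PB.18380, PB.1515 and PB.23637 differed by 2.49 ± 0.65, 1.89 ± 0.35 and 1.50 ± 0.24, and PB.9807 by 0.56 ± 0.19. PB.18380 and PB.1515 stayed under 10 CPM in every oral-aboral section. The left-right edge ratios of these 6 loci lay between 2.00 and 3.05.

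FoxA and the unnamed locus PB.21421 were higher in every inner oral-aboral section than in every outer one. Of the layout genes high in the left-right centre, Pax6, Otx and Dmbx were not called in this comparison. They differed by -0.20 ± 1.10, 2.13 ± 1.29 and 1.47 ± 1.16 (edgeR adjusted p = 0.900, 0.214 and 0.332). Calls for other named genes high in the centre went both ways. Hedgehog, Fzd5-8 and Nkx2.2 were higher in the inner sections, by 3.53 ± 0.68, 4.01 ± 0.74 and 3.81 ± 0.85 (edgeR adjusted p = 0.00613, 0.00532 and 0.00958). Wnt3 and Dkk3 were lower there, by -1.29 ± 0.44 and -1.42 ± 0.34 (edgeR adjusted p = 0.0425 and 0.0126). FoxA had between 549.1 and 638.2 CPM in inner sections and between 9.82 and 215.1 CPM in outer ones, and PB.21421 took 5.23% to 9.11% of inner libraries and 0.416% to 5.02% of outer ones. Their part in the differences of the 150 loci was not tested. In the left-right series FoxA was lower in every edge section than in every centre section, whereas PB.21421 took 0.00591% to 0.263% of edge libraries and 0.0437% to 0.892% of centre libraries, with overlap.

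Along the proximo-distal series, which the rule did not use at all, 96 of the 150 loci could be tested and 54 had too few counts. From section 1 to section 22, 60 of the 96 fell and 2 rose, against 19.1% falling and 20.3% rising over all 11067 loci tested (edgeR quasi-likelihood trend, adjusted p under 0.05). Among the 8118 tested loci that met the count and oral-aboral conditions, 16.8% fell and 21.3% rose. The fitted log2 change over the 22 sections had a median of -1.69 in the 96 loci and 0.01 in all loci, and 88 of the 96 were negative (49.8% of all loci). Without the filter on low counts, 149 loci were tested, and 68 fell (11.8%) and 2 rose (14.7%). A spline, which takes any smooth pattern, called 82 of the 96 (53.4%). The highest of the 3 stretches was sections 1 to 7 for 73 of the 96 (43.1%), sections 8 to 15 for 19 (20.1%) and sections 16 to 22 for 4 (36.8%).

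PB.12043 fell most clearly: sections 16 to 22 had 51.6, 107.2 and 246.4 CPM (lowest, median and highest), against 934, 1657 and 3320 CPM in sections 1 to 7. The groups were far apart, and section 7 was already the lowest of the first stretch. Its fitted log2 change was -5.23 ± 0.32 (SE, edgeR adjusted p = 2.57e-12). PB.13743 had 12.1, 33.3 and 61.6 CPM in sections 16 to 22, against 148, 334 and 676.3 CPM in sections 1 to 7, a change of -4.79 ± 0.30 (edgeR adjusted p = 5.94e-12). PB.11537 had 8.55, 23.8 and 53.9 CPM in sections 16 to 22, against 146.6, 221.2 and 468 CPM in sections 1 to 7, a change of -4.32 ± 0.31 (edgeR adjusted p = 4.15e-11). None of these loci overlapped between the stretches. PB.586, low in the inner oral-aboral sections, changed by -5.20 ± 0.63, and V4_HAP2_PB.9774 by -3.46 ± 0.45 (edgeR adjusted p = 2.81e-07 and 7.07e-07). PB.586 stayed between 0 and 35.7 CPM in sections 16 to 22 and between 122.1 and 370.1 CPM in sections 1 to 7. Of the 10 loci with the highest edge ratio, 4 were tested along this series. PB.21173 changed by -2.85 ± 0.57 and PB.19592 by -3.38 ± 0.79 (edgeR adjusted p = 0.000269 and 0.00121), PB.8079 by -1.53 ± 0.61 (adjusted p = 0.0451, lost in 16 of 22 fits that left out 1 section) and PB.1514 by -1.41 ± 0.62 (adjusted p = 0.0739, past the threshold without section 2 or section 5).

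The 2 loci that rose were PB.12593 and PB.7436. PB.12593, also the strongest of the inner oral-aboral exceptions, had 7.79, 22.2 and 66.7 CPM in sections 16 to 22, against 0, 0 and 10.3 CPM in sections 1 to 7, and peaked in section 15 at 76.1 CPM. Its fitted change was 4.30 ± 1.16 (edgeR adjusted p = 0.00432), on 125 counts. PB.7436 had 15.4, 30.8 and 47.7 CPM in sections 16 to 22, against 0, 11.2 and 29.1 CPM in sections 1 to 7, and the stretches overlapped. Its change of 1.37 ± 0.53 (edgeR adjusted p = 0.0391) lost its call without section 2, 3, 4, 5, 6, 18, 19 or 21, where the adjusted p ran from 0.0508 to 0.0813. The change was 0.74 with scaling by total count alone and 0.98 with log2 total count as covariate (edgeR adjusted p = 0.313 and 0.234). Without the filter on low counts it was 1.36 (edgeR adjusted p = 0.0524). PB.7436 was lower in the inner oral-aboral sections, by -1.29 ± 0.23 (edgeR adjusted p = 0.00463).

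**Figure D3:**
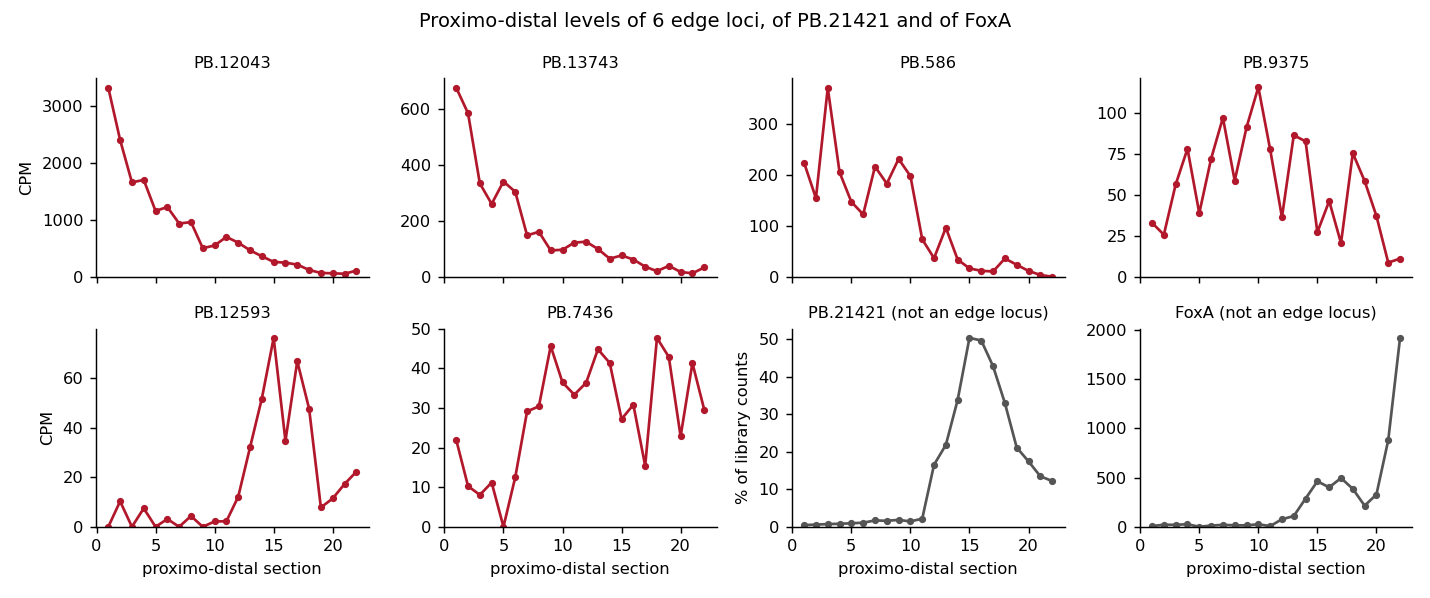
Level in CPM (vertical axis, from 0, scaled per panel) by proximo-distal section for 6 of the edge loci (red), 1 point per library, beside the share of library counts taken by PB.21421 and the level of FoxA in CPM (grey). PB.12043 and PB.13743 drop from section 1 on, PB.586 stays high up to section 10, PB.9375 has no steady direction, and PB.12593 rises where PB.21421 takes 12.2% or more of a library.

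The decline was not spread evenly along the arm. The summed level of the 150 loci was 16302 CPM in section 1, 12310 CPM in section 11, 5942 CPM in section 15 and 4815 CPM in section 22. PB.21421 took 12.2% to 50.3% of the libraries of sections 12 to 22 and 0.453% to 2.16% of those of sections 1 to 11, and FoxA ranged from 76.7 to 1918 CPM in sections 12 to 22 and from 0 to 26.0 CPM in sections 1 to 11. In sections 1 to 11 alone, 20 loci of 96 fell (8.81% of all loci tested there) and 5 rose (6.19%), and the median log2 change was -0.53. There the direction turned for PB.21003, PB.21890, PB.3995, PB.4861, PB.9373 and PB.9375, and PB.9375 rose by 1.43 (edgeR adjusted p = 0.0108), against -0.88 ± 0.61 over all 22 sections (adjusted p = 0.261). The part of PB.21421 and FoxA in the decline was not tested, though the CPM leave PB.21421 out of the total. Scaling by total count alone moved the median of all loci to -0.66 and gave 81 falling and 1 rising among the 96; over all loci it gave 34.6% falling and 9.61% rising.

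Of the 94 loci tested in both series of specimen 1, 46 fell along the proximo-distal series and were lower in the inner oral-aboral sections, 12 fell without being called lower in the inner sections, and 16 were called lower in the inner sections alone. Over all loci tested in both, 1201 of 11045 were called in both ways, which is 10.9%, against 48.9% of the 94. PB.12593 rose and was higher in the inner sections, and PB.7436 was called in opposite directions. Both series come from specimen 1, and the labels do not tie a section of one to a section of the other.

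**Figure D4:**
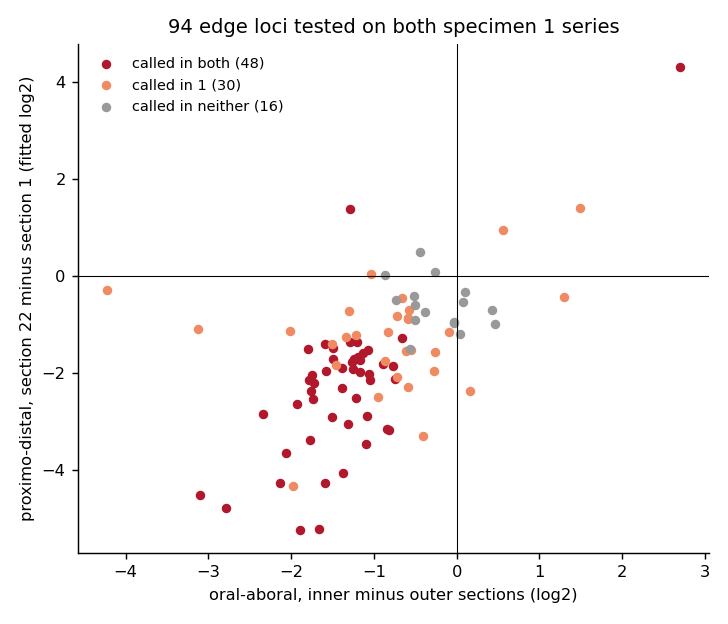
Log2 difference between inner and outer oral-aboral sections (horizontal axis) against the fitted log2 change from proximo-distal section 1 to section 22 (vertical axis) for the 94 edge loci tested in both, coloured by whether both (48), 1 (30) or neither (16) passed an adjusted p of 0.05. Most points lie in the lower left; PB.12593 stands alone at the upper right, at 2.70 and 4.30.

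The 249 edge loci with an oral-aboral rise shared part of this. In the proximo-distal series 57 of 128 tested fell and 1 rose, with a median log2 change of -1.11. Where the highest stretch was sections 1 to 7 in 73 and sections 8 to 15 in 19 of the 96 tested among the 150 loci, it was sections 1 to 7 in 62 and sections 8 to 15 in 62 of these 128. In the oral-aboral series 99 of 239 tested were lower in the inner sections and 2 higher, with a median of -1.75. The difference between the 2 sets was not tested, since their choice used the oral-aboral sections.

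The loci of the 150 with the most left-right counts stood far higher in specimen 2 than in specimen 1. That ranking used specimen 2 alone, so it favours this direction. PB.12043, with the most oral-aboral counts of the 150 (58393), went the other way. It ran from 579.4 to 3081 CPM in oral-aboral sections and from 119.8 to 903.1 CPM in left-right sections. PB.9373 had 251015 left-right counts and averaged 15512 CPM in the left-right series, against 174.0 CPM in the oral-aboral and 697.6 CPM in the proximo-distal series. Within the left-right series it had 14281, 21814 and 37172 CPM (lowest, median and highest) at the edges, against 6119, 7620 and 14995 CPM in the centre, so even its lowest centre section was above every section of specimen 1. The summed level of the 150 loci was 68379 CPM in left-right section 1 and 16050 CPM in section 10, and with PB.9373 left out 45945 CPM in section 1 and 9931 CPM in section 10. PB.4861 averaged 5675 CPM in the left-right series, against 263.9 and 183.8 CPM in the oral-aboral and proximo-distal series. PB.14003 averaged 3758 CPM in the left-right series, against 163.9 CPM in the oral-aboral and 108.1 CPM in the proximo-distal series.

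In 14 of the 150 loci the left-right mean was at least 10 times both the oral-aboral and the proximo-distal mean, each plus 1 CPM, against 0.743% of the 13185 loci with enough counts. The opposite held in 1 locus, PB.21570 (0.22%), with 21.2 CPM in the left-right series, against 221.4 and 249.0 CPM in the oral-aboral and proximo-distal series. The minimum of 100 counts applied to the left-right series alone, for the 150 as for the 13185 loci. Loci near absent from specimen 1 could therefore enter, while those near absent from specimen 2 could not. Over all 150 the median ratio of the left-right to the oral-aboral mean was 2.30, and to the proximo-distal mean 1.58; over all loci with enough counts it was 1.02 and 0.84. Of the 249 other edge loci, 35 passed the 10-fold limit. With the 6 centre sections alone standing for specimen 2, 7 of the 150 passed it (0.599% of all loci with enough counts). At 5-fold 22 passed (2.04%), and with 5 CPM added in place of 1 CPM 8 passed (0.402%). Specimen, arm, plane of section and library batch cannot be told apart in this comparison, and no test was made between specimens.

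Some of these loci were close to absent from specimen 1. PB.22838 had 514 counts in the left-right series, 6 in the oral-aboral series and 0 in the proximo-distal series, which allows up to 0.418 CPM over those 22 sections. Its edge sections had 28.0, 38.0 and 53.2 CPM (lowest, median and highest), against 11.6, 17.4 and 24.9 CPM in the centre. PB.25772, the locus with the highest edge ratio, had 200, 6 and 2 counts in the left-right, oral-aboral and proximo-distal series. In all, 3 loci had fewer than 10 oral-aboral counts and 10 had fewer than 10 proximo-distal counts. Of the 14 loci past 10-fold, 8 had too few proximo-distal counts for the trend and 5 of the other 6 fell; 9 could be tested in the oral-aboral series and 6 of these were lower in the inner sections.

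**Figure D5:**
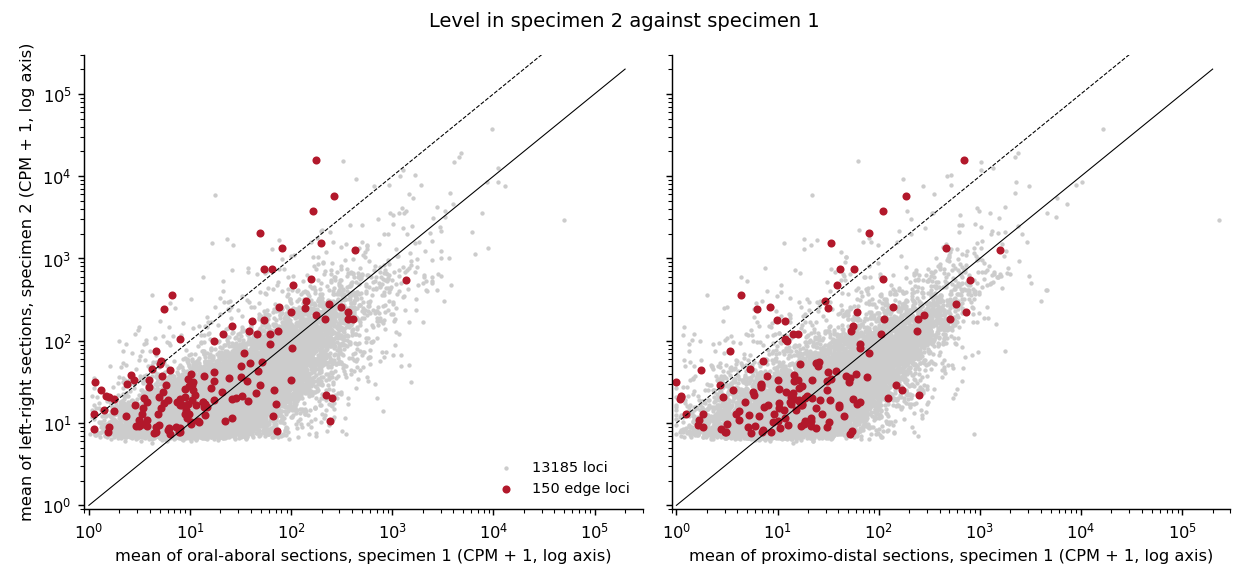
Mean CPM plus 1 of each locus over the left-right sections of specimen 2 (vertical log axis) against its mean over the oral-aboral (left) and proximo-distal (right) sections of specimen 1 (horizontal log axis), for the 150 edge loci (red) and all 13185 loci with at least 100 left-right counts (grey). The solid line marks equal levels and the dashed line 10-fold; PB.9373 is the highest red point in both panels, at 15512 CPM.

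The numbers in the identifiers may reflect order along the assembly, which was not checked here. Among the 150 loci, 12 pairs had numbers no more than 2 apart, which takes in 23 loci. How many such pairs other sets of 150 loci hold was not counted, so the number does not show clustering. PB.1152 and PB.1153 are such a pair, with means of 360.0 and 244.9 CPM in the left-right series, against 5.62 and 4.49 CPM in the oral-aboral series. The correlation of their log2 levels over the 16 left-right sections was 0.94 (Pearson, a description of libraries that both loci share). All 150 loci were chosen for their pattern over these sections, and the median correlation over all 11175 pairs of them was 0.61, against 0.73 over the 12 pairs. The quartiles over all pairs were 0.476 and 0.738, so the median of the 12 lay between them. PB.9373 and PB.9375 are another pair, with a correlation of 0.98 and left-right means of 15512 and 750.8 CPM. Across the 12 pairs the correlation went down to 0.36, in PB.11395 and PB.11396.

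The count table names 66 developmental regulators by symbol, and these rows lie outside the 150 loci because of their tag. Whether they share reads with rows of the 150 loci is not known. Of the 66, 51 had at least 100 left-right counts and 41 of those also met the oral-aboral condition. Hbn, a paired-type homeobox gene used in neural territories of embryos, was the one that also reached the edge ratio, at 2.14. It had 4.00, 15.4 and 27.6 CPM (lowest, median and highest) at the edges, against 2.64, 6.65 and 12.5 CPM in the centre, and the groups overlapped. In the oral-aboral series it had 8.90, 6.34, 6.28 and 5.86 CPM in inner sections 3 to 6, against 13.6, 11.5, 9.94 and 11.8 CPM in outer ones, a log2 difference of -1.04 ± 0.21 (edgeR adjusted p = 0.00673). Its 40 proximo-distal counts were too few for the trend.

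The 5 named genes whose left-right profile was most like the mean of the 150 loci were Hox11-13d, with a Pearson correlation of 0.96 over the 16 sections, Pax2-5-8 with 0.92, Hox5 with 0.86, Hox1 with 0.78 and Msx with 0.69. Hox11-13d had an edge ratio of 3.46 and missed the rule because it was higher in oral-aboral sections 7 and 8, at 83.3 CPM, than in sections 1 and 2, at 24.3 CPM. Its edges had 62.9, 89.3 and 94.8 CPM (lowest, median and highest), against 13.8, 23.0 and 40.5 CPM in the centre, with no overlap. Its inner oral-aboral sections were lower by -1.93 ± 0.59 (edgeR adjusted p = 0.0294), a call that was lost without section 3, 4, 5, 7 or 8. Its proximo-distal change of -1.58 ± 0.73 did not pass the threshold (edgeR adjusted p = 0.0877), and passed it without section 1 or section 19.

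Pax2-5-8, a paired-box gene of sensory and excretory tissue, had 92.8, 121 and 143.4 CPM at the edges, against 44.2, 57.4 and 88.8 CPM in the centre. It was lower in the inner oral-aboral sections by -1.90 ± 0.40 (edgeR adjusted p = 0.00789), and fell along the proximo-distal series by -2.02 ± 0.24 (edgeR adjusted p = 2.15e-07), the directions called for most of the tested edge loci. Its edge ratio of 1.97 was just below that of the last of the 150. It also missed the oral-aboral condition, with 161.1 CPM in sections 7 and 8 against 101.3 CPM in sections 1 and 2. Hox5, a Hox gene of the central class, had a proximo-distal change of -1.57 ± 0.51 (edgeR adjusted p = 0.0157) and an inner difference of -1.25 ± 0.42 (adjusted p = 0.0414), lost without section 1, 3, 4, 6, 7 or 8. Hox5 missed the rule as well, with an edge ratio of 1.97. It had 53.4 CPM in oral-aboral sections 7 and 8 against 52.4 CPM in sections 1 and 2. Hox1, of the anterior Hox class, differed from most of the 150: it changed by 1.32 ± 0.40 along the proximo-distal series (edgeR adjusted p = 0.0104), a call lost without section 21 or 22. With both of these left out the change was 0.17 (edgeR adjusted p = 0.773). The call was also lost with total count alone or sections 16 to 22 against 1 to 7 (edgeR adjusted p = 0.187 and 0.101), and with limma (adjusted p = 0.0699). Its inner and outer oral-aboral sections differed by 0.17 ± 0.31 (edgeR adjusted p = 0.694). Msx, a homeobox gene of the Nk class with roles in dorsal ectoderm and mesenchyme in other animals, changed by -2.05 ± 0.59 along the proximo-distal series (edgeR adjusted p = 0.00681). Its inner and outer oral-aboral sections differed by -0.85 ± 0.36 (edgeR adjusted p = 0.0833), past the threshold without section 3. In sections 1 to 11 alone Hox5 changed by 0.80 and Msx by 0.49, neither past the threshold.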

How the data were processed

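Per the labels' protocols, Iso-Seq libraries were made from RNA of cryosections. The authors deposited whole-number counts per transcript model and library (25794 rows, 46 libraries), with aligner, build and read filters not given in the sources used here. Transcript models sharing a locus were added up (2 models in 1925 of 23869 loci). RefSeq's table for Pmin_3.0 matched 0 identifiers, so the loci stay unnamed. Reads carry no molecular identifiers, so floors (3 counts) cover counting error only.

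Each section has 1 library, and edge, centre, flank, inner and outer are sets of section numbers. edgeR 4.0.16 (R 4.3.3; filterByExpr with minimum count 5 and total 15, TMM, glmQLFit, Benjamini-Hochberg over all loci tested, threshold 0.05) gave the proximo-distal trend in section number, a spline with 3 degrees of freedom, and inner-outer and flank differences. Fits were tested on simulated data. Neighbouring sections are not independent, so p-values are approximate. Alternatives were other scalings and filters, limma 3.58.1, DESeq2 1.42.0, groups of sections and leaving out each section.

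Members and lists were chosen with earlier results of these data known. Named were the 10 highest ratios, the 5 smallest p in each direction of each test, 3 loci on either side of the threshold, named genes that met the rule or were most like the members, and layout markers. PB.9373, PB.9375, PB.4861, PB.14003, PB.19383, PB.5733, PB.1153, PB.22838, PB.4726, PB.9807, PB.5716, PB.5717, PB.19061, PB.21570, PB.11395 and PB.11396 were chosen after their values were seen.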

Additional observations from a re-analysis of the deposited data

Results flagged for a closer look

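Values far from the others of their set of 4 or 6 sections were looked for in 37 named loci and 148 sets, and 22 were found; chance gives about 1 in 20 sets, and sections of one set are different places and not replicates. Left-right section 6, a centre section that adjoins flanking section 5, was the high one in 7 of them: PB.9373 had 14995 CPM there (6119 to 8768 in the other centre sections), PB.5733 2549 CPM (383.9 to 762.5), PB.1152 331.7 CPM (22.5 to 121.1), PB.1153 327.0 CPM (13.1 to 116.2), PB.18612 109.0 CPM (32.9 to 57.0), PB.23637 34.3 CPM (4.42 to 8.24) and PB.18380 32.7 CPM (2.53 to 7.04). Otx, Dmbx and Tailless had 0 counts in section 6.

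At the edges, PB.19592 had 79.2 CPM and PB.23637 60.1 CPM in section 1, PB.14003 had 6802 CPM in section 16, and PB.7257 had 32.0 CPM in section 14, the shallowest of the series, on 8 counts.

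In the outer oral-aboral sections, section 1 stood high in PB.23128 (104.3 CPM), PB.18612 (100.8 CPM), PB.7257 (49.8 CPM) and PB.25772 (0.160 CPM, 1 count), and section 2 in PB.12593 (23.0 CPM), PB.17362 (19.5 CPM) and PB.22838 (0.250 CPM, 1 count). In the inner sections, section 3 stood high in PB.9373 (208.9 CPM), PB.8079 (39.7 CPM) and Hbn (8.90 CPM), and section 5 in PB.17316 (3.51 CPM).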

How the results depend on the processing

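No paired analysis was possible because a section number names a different place in each series. Of the 150 loci, the rule kept 93 with TMM-scaled CPM and between 108 and 146 under its other alternatives, with 117 to 136 when 1 section was left out; 44 were kept under all of them. Proximo-distal: 60 loci fell, 39 with sections 16 to 22 against 1 to 7 (70 tested), 20 in sections 1 to 11 alone, and 50 to 61 with a section left out. The 2 that rose became 1 with total count alone, the stricter filter, sections 16 to 22 against 1 to 7 or log2 total count as covariate, 5 in sections 1 to 11, 3 without sections 21 and 22 (added after seeing the data), and 1 to 3 with a section left out. Within sections 1 to 11 the fitted log2 change turned to 0.19 for PB.21003, 0.91 for PB.21890, 0.51 for PB.3995, 0.57 for PB.4861, 0.39 for PB.9373, 1.43 for PB.9375, 0.80 for Hox5 and 0.49 for Msx; the cause was not tested. Oral-aboral: 83 lower became 54 to 82 and 6 higher became 5 to 9 with a section left out, and a square term gave 10 higher; sections 7 and 8 alone as outer gave 66 lower and 8 higher (added after seeing the data). The flank difference called 0 of the 150 loci under its alternatives. The 14 loci past 10-fold between specimens became 22 at 5-fold, 8 with 5 CPM added and 7 from centre sections alone (all added after seeing the data). Of the settings tried for named loci, 1682 left the call as it was, 103 lost it, 26 gained it and 8 changed the sign of the fitted value. Among those 8, PB.9375 was called with both signs along the proximo-distal series. It changed by -1.77 with total count alone and by 1.43 in sections 1 to 11 alone (edgeR adjusted p = 0.0219 and 0.0108). Depth limits 54 loci in the proximo-distal series.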
